A study of Caenorhabditis elegans with 26 samples.

Results

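Small-RNA reads were followed over 10 genes whose proteins build or populate the P granules of Caenorhabditis elegans: meg-1, meg-2, meg-3, meg-4, pgl-1, pgl-3, glh-1, glh-4, deps-1 and cgh-1. They were chosen by name from the 22271 genes of the count table, all 10 were found in it, and the transcript rows of each were summed. Whole worms of 3 genotypes without a tethered protein were used, with 2 libraries of each: wild type (WT), mut-16(DE6R), which carries a changed allele of mut-16, and rde-3 mut-16(DE6R), in which that allele is combined with a mutation of rde-3; the last 2 are called the single and the double mutant. The labels give neither the age of the worms, the strain background, the nature of the DE6R change or of the rde-3 allele, nor whether separate cultures gave the libraries of each group. The p-values therefore measure only how far these libraries spread, and that spread may be technical.

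P granules are membraneless compartments of the germline that sit on the nuclear envelope and receive transcripts as these leave the nucleus. Proteins of the PGL family form their scaffold, helicases of the GLH family, related to Vasa, bind RNA in them, and the disordered MEG proteins coat and stabilise them in the embryo. Mutator foci, whose scaffold is MUT-16, lie next to them and are a site where 22G RNAs, a class of secondary small RNAs, are copied from target transcripts; RDE-3, also named MUT-2, tails the RNAs that serve as templates there. Reads on a P granule gene therefore count small RNAs made against or from its transcript. They are not a measure of its mRNA or protein.

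The 6 libraries held between 515300 and 1571194 counted reads. A single gene, F56H9.8, took 37.5% to 55.5% of them, and the factors that scale the libraries to each other (TMM) ran from 0.582 in WT to 1.35 in mut-16(DE6R), so that levels are given as TMM-scaled CPM (read counts scaled to a common library size) and depend on this scaling. Reads at mut-16 itself numbered 5 and 2 in WT, 2 and 5 in the single mutant and 7 and 8 in the double mutant. Scaled for depth the group means were 4.98, 2.38 and 10.8 CPM. In the test described below mut-16 was called higher in the double than in the single mutant (log2 fold change 2.12, SE 0.64). RDE-3 is encoded by mut-2, where reads numbered 0 and 1 in WT, 3 and 4 in the single mutant, and 0 and 2 in the double mutant. These few reads do not check the genotypes.

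How much of a gene could be counted differed among the 10 members. The table lists reads per transcript, and of 6055 protein-coding transcript rows that share every 22-base window of their exons with another row of the same gene, 0 held a read in any library. Of 11496 rows with at least 1 window of their own 4678 held reads, and of 14250 rows that are the only one of their gene 11293 did. Reads were thus listed where a sequence occurs in a single row, and for a gene with several transcripts the table shows only the stretches that set one transcript apart.

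For 7 members (the 4 meg genes, glh-1, glh-4 and cgh-1) the table has 1 row each, and none of their 2252 to 3726 exonic windows is shared with another row of the same gene. Windows shared with other genes, such as the paralogs glh-1 and glh-2 or meg-3 and meg-4, were not checked, and reads in them may be missing or shared. The other 3 have several rows. At pgl-1 (3 rows) 70 windows belong to a single row, at pgl-3 (2 rows) 55, and at deps-1 (2 rows) 319. Over all 6 libraries pgl-1 held 1 read and pgl-3 20, against 159 at deps-1 and 257 to 2860 at the 7 members with 1 row. The same split was seen in 34 other granule genes: 1 of 20 with a single row and 10 of 14 with several rows had under 20 reads. Their medians were 510.5 and 5.5 reads. Over all protein-coding genes the split was much smaller, with medians of 6 reads with 1 row and 2 reads with 2 rows or with 3 or more. Since only 70 and 55 windows could be counted at pgl-1 and pgl-3, their low counts are values of short stretches and not levels of those genes.

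**Figure D1:**
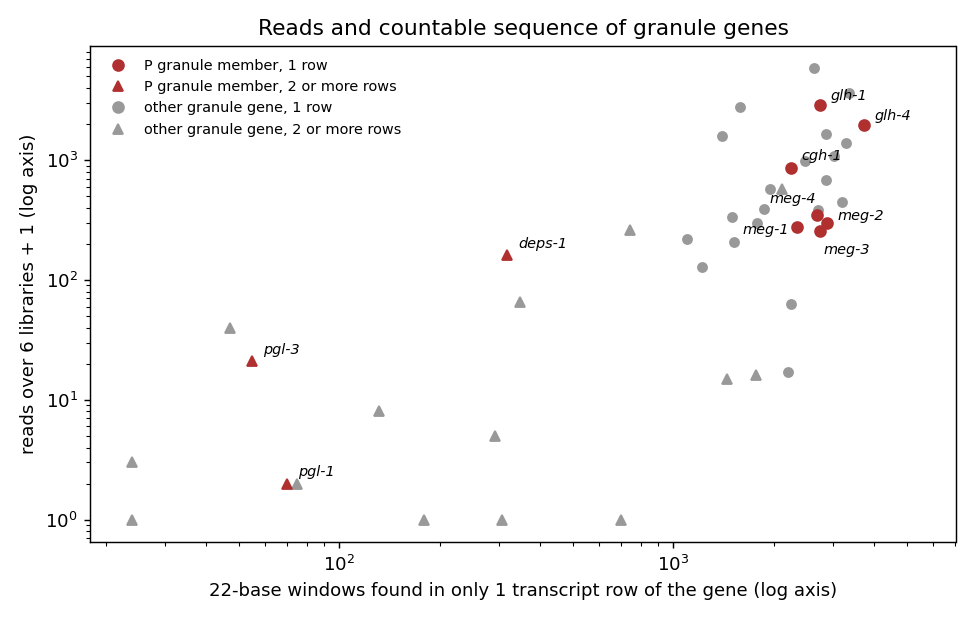
Reads summed over the 6 libraries, plus 1, against the number of 22-base windows found in a single transcript row of the gene, both on log axes, for the 10 P granule members (red) and 34 other granule genes (grey). Circles are genes with 1 row and triangles genes with 2 or more. The members pgl-1, pgl-3 and deps-1 lie left of the other 7 because 70, 55 and 319 windows could be counted.

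Levels between genes are compared as CPM per kilobase of countable windows. In WT, glh-1 was highest of the 8 tested members with 253 ± 37.1 (SD, n = 2 for all levels), followed by glh-4 with 81.5 ± 8.03, cgh-1 with 55.3 ± 3.47, deps-1 with 38.5 ± 28.0 from 19 reads, meg-4 with 30.9 ± 4.47, meg-3 with 13.6 ± 2.38, meg-1 with 8.59 ± 1.32 and meg-2 with 6.80 ± 0.0987. The libraries of cgh-1 and deps-1 and of deps-1 and meg-4 overlapped. Those of the other neighbours in this order did not. The values of the short stretches at pgl-3 (97.1 ± 22.0 from 8 reads) and pgl-1 (8.86 ± 12.5 from 1 read) were given no place in the order. Among 5234 tested genes with countable windows, whose median in WT was 35.4, glh-1 stood at the percentile of 91.7, glh-4 at 78.1 and cgh-1 at 67.7, while meg-1 stood at 10.2 and meg-2 at 8.12. In mut-16(DE6R) meg-1 and meg-2 were at percentiles of 47.5 and 48.8 and lay above meg-4 (27.7 ± 2.51 and 28.6 ± 0.289 against 22.7 ± 3.94). In rde-3 mut-16(DE6R) glh-1 led with 166 ± 9.87, deps-1 came next with 135 ± 6.69 and cgh-1 after it with 112 ± 8.65, and meg-2 was again lowest of the 8 tested members with 5.60 ± 2.65. The values of deps-1 come from 319 windows, 15.8% of its longer transcript, so its places are those of a stretch and may not hold for the gene. Before division by windows it had 43.0 CPM in the double mutant, against 252 at cgh-1 and 346 at glh-4.

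Over all 10 members the libraries held 797 and 1140 reads in WT, 938 and 2452 in the single mutant and 770 and 937 in the double mutant. Of these reads glh-1 made up 52.3% and 54.3% in WT, 33.7% and 35.6% in the single mutant and 36.9% and 37.6% in the double mutant. The 4 meg genes together made up 12.2% and 12.5%, 21.4% and 22.9%, and 8.96% and 11.1% in the same order. Within the set, reads thus stood more on the meg genes together in the single mutant than in either of the other genotypes. Against WT this came mainly from meg-1 (1.51% and 1.58% to 5.44% and 5.91%) and meg-2 (1.63% and 1.4% to 7.36% and 7.14%). The share of meg-3 rose less, and that of meg-4 was lower (6.27% and 6.49% to 4.8% and 5.87%). A share also rises when that of another member, such as glh-1, falls. The share of cgh-1 was 8.42% to 10.9% in the first 4 libraries and 20.1% and 21.0% in the double mutant.

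**Figure D2:**
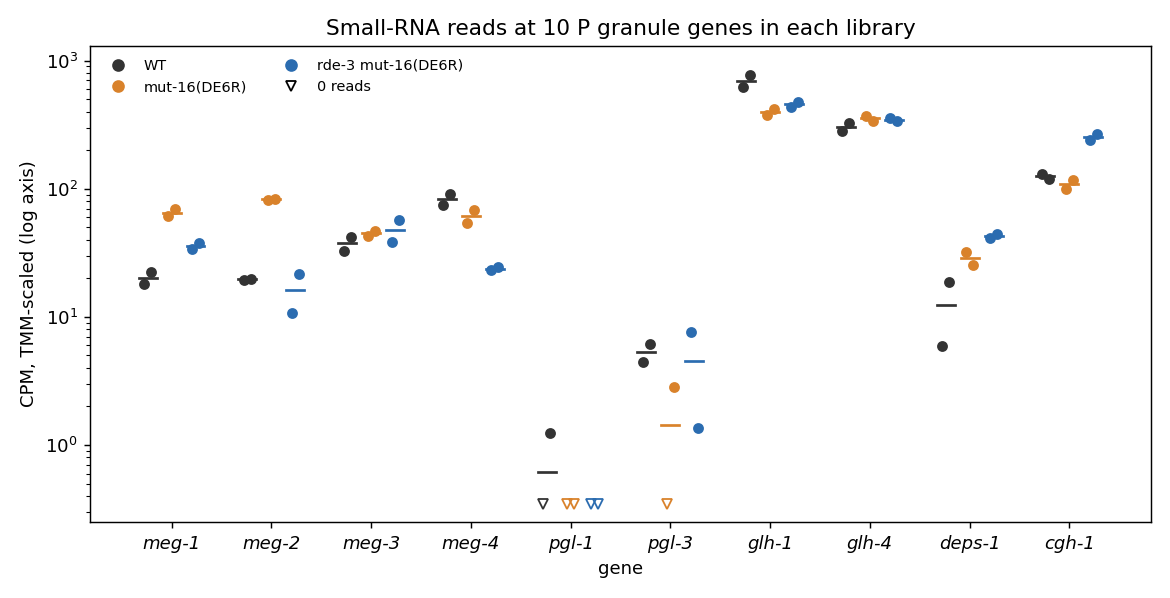
Each point is 1 library and each bar the mean of 2, in TMM-scaled CPM on a log axis, for the 10 members in WT (black), mut-16(DE6R) (orange) and rde-3 mut-16(DE6R) (blue). Open triangles mark 0 reads. The orange points of meg-1 and meg-2 lie above both other groups, the blue points of meg-4 lie below and those of cgh-1 above the others.

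The first comparison asked how the mut-16(DE6R) allele changed small RNAs on these genes. Of the 8 tested members 3 rose (meg-1, meg-2 and deps-1), 1 fell (glh-1) and 4 did not pass (meg-3, meg-4, glh-4 and cgh-1), while over all 5312 tested genes 22.1% rose and 36.6% fell (58.7% in either direction; quasi-likelihood F test of edgeR, Benjamini-Hochberg adjusted p under 0.05). The median log2 fold change of the 8 members was 0.23 against −0.09 over all tested genes. With both mutations against WT, 3 members rose (meg-1, deps-1 and cgh-1) and 2 fell (meg-4 and glh-1), against 26.8% and 37.9% of all genes (64.7% in either direction), with a median of 0.26 against −0.03. With rde-3 mut-16(DE6R) set against mut-16(DE6R), 2 rose (deps-1 and cgh-1) and 3 fell (meg-1, meg-2 and meg-4), against 16.5% and 26.2% (42.7% in either direction), with a median of 0.03 against −0.02. The shares called were thus of the order seen in all genes, and members moved in both directions. The split depends on the scaling: with library totals 8 rose and 0 fell in the single mutant against WT and 7 and 1 in the double mutant against WT, and scaled to germline division reads 3 and 3, 2 and 3, and, in the double against the single mutant, 1 and 4. These comparisons share groups, so their values for a gene are not independent of each other.

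Fold changes are relative to the bulk of genes. In mut-16(DE6R) against WT the median of all tested genes moved from −0.09 with TMM factors to 1.09 with library totals, 0.76 with totals that leave out F56H9.8, 0.30 with upper quartiles, and −0.34 when the reads of 44 germline division genes served as library size. For rde-3 mut-16(DE6R) against WT it moved from −0.03 to 1.06, 1.22, 0.50 and −0.53 in the same order, and for the double against the single mutant from −0.02 to −0.11, 0.38, 0.11 and −0.27. Over all tested genes 1173 rose and 1944 fell in the single mutant against WT with TMM factors, against 3394 and 1005 with library totals and 634 and 2272 with germline division reads. For the double mutant against WT the counts were 1424 and 2015, 2944 and 1544, and 419 and 2439, and for the double against the single mutant 877 and 1393, 674 and 1479, and 353 and 1749. A gene's rank among all genes does not depend on such a shift and is given beside its change.

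The MEG proteins are disordered proteins that govern P granules in the early embryo. MEG-1 and MEG-2 are needed maternally for germ cell development, and their genes lie side by side on X in the same orientation, 906 bases apart: meg-2 at 13922643 to 13926129 and meg-1 at 13927036 to 13929634, both on the minus strand (WBcel235). At meg-1 the libraries held 12 and 18 reads in WT, 51 and 145 in the single mutant and 22 and 28 in the double mutant, or 17.9 and 22.3, 60.7 and 69.0, and 33.8 and 37.8 CPM. The 3 groups did not overlap, with WT lowest and the single mutant highest. Reads at meg-1 rose 3.25-fold in mut-16(DE6R), a log2 fold change of 1.70 (SE 0.26, adjusted p = 6.37e-10), above 96.5% of tested genes. From the single to the double mutant they fell by 0.88 on the log2 scale (SE 0.23, adjusted p = 6.99e-04), and the double mutant remained above WT by 0.82 (SE 0.34, adjusted p = 0.0263). That last call did not pass without WT library 1 (0.66), without library 2 of the double mutant (0.71), in DESeq2 (0.78), with no filter (0.87) or scaled to germline division reads (0.32). The fall from the single to the double mutant did not pass in DESeq2 (−0.90) or with totals that leave out F56H9.8 (−0.48).

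At meg-2 the libraries held 13 and 16 reads in WT, 69 and 175 in the single mutant and 7 and 16 in the double mutant, or 19.4 and 19.8, 82.1 and 83.3, and 10.8 and 21.6 CPM. Both mut-16(DE6R) libraries lay far above the other 4, and the libraries of WT and the double mutant overlapped. Reads rose 4.20-fold in mut-16(DE6R) (log2 fold change 2.07, SE 0.25, adjusted p = 2.71e-15), above 97.6% of tested genes. They were 4.99-fold lower in the double than in the single mutant (log2 fold change −2.32, SE 0.27, adjusted p = 1.46e-16). Between the double mutant and WT the change did not pass (−0.25, SE 0.41, adjusted p = 0.606), and the ratio of 0.841 had a 95% counting interval of 0.465 to 1.51, which covers counting error only. The rise in the single mutant and the fall from the single to the double mutant kept their direction and passed under every alternative run, at 1.82 to 3.25 and −1.92 to −2.95.

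Of the genes on either side of the pair, WBGene00010494, which lies 1263 bases from meg-1 and has 872 countable windows, held 2 and 1 reads in WT and 0 in the other 4 libraries. On the other side Y26E6A.2, which lies 8253 bases from meg-2 and has 115 countable windows, held 0 or 1 read per library. The counts of elt-3 (0 reads, 11 countable windows) and ekl-5 (1 read, windows not counted) allow no statement. These genes were picked by position, with the reads at the pair already known.

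MEG-3 and MEG-4 are paralogs that form the outer layer of embryonic P granules, and both genes also lie on X: meg-3 at 1986469 to 1989607 on the minus strand and meg-4 at 1682954 to 1686419 on the plus strand. At meg-3 the libraries held 22 and 34 reads in WT, 36 and 98 in the single mutant and 25 and 42 in the double mutant, or 32.9 and 42.1, 42.8 and 46.7, and 38.5 and 56.7 CPM. The mut-16(DE6R) libraries lay just above those of WT, and the double mutant spanned both. No comparison passed at meg-3: the ratios were 1.20 (counting interval 0.873 to 1.67) for mut-16(DE6R) against WT, 1.27 (0.877 to 1.84) for the double mutant against WT, and 1.06 (0.776 to 1.43) for the double against the single mutant. Both changes against WT passed as rises with library totals (1.45 and 1.44), totals that leave out F56H9.8 (1.11 and 1.60) and upper quartiles (0.66 and 0.88). On its lower side, WBGene00018690 at 1635 bases held 187 and 218 reads in WT, 17 and 55 in the single mutant and 1 and 1 in the double mutant. The next gene, F52D2.12 at 5526 bases, held 205 and 277, 15 and 66, and 20 and 16 reads. On its upper side Y40A1A.2 and Y40A1A.3 held 0 to 2 reads per library. Reads at both lower-side genes were thus already fewer in the single mutant than in WT.

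At meg-4 the libraries held 50 and 74 reads in WT, 45 and 144 in the single mutant and 15 and 18 in the double mutant, or 74.7 and 91.7, 53.6 and 68.6, and 23.1 and 24.3 CPM. The 3 groups did not overlap, with WT highest and the double mutant lowest. Reads in the double mutant were 3.52-fold lower than in WT (log2 fold change −1.82, SE 0.27, adjusted p = 3.88e-11) and 2.68-fold lower than in the single mutant (−1.42, SE 0.26, adjusted p = 2.18e-07). Both falls kept their direction under every alternative run, and the fall against WT did not pass with totals that leave out F56H9.8 (−0.56). Between mut-16(DE6R) and WT the change of −0.40 (SE 0.18, adjusted p = 0.053) did not pass, and its sign turned with library totals (0.79) and totals without F56H9.8 (0.46), and it was at 0.00 with upper quartiles. It passed as a fall scaled to germline division reads (−0.65), without WT library 1 (−0.53), without mut-16(DE6R) library 2 (−0.65) and without library 1 or 2 of the double mutant (−0.39 and −0.40). Of the genes beside meg-4, fbxa-170 at 4832 bases held 15 and 19 reads in WT, 7 and 13 in the single mutant and 2 and 6 in the double mutant, and tbx-31, C36C9.11 and C36C9.12 held 0 to 4 per library.

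**Figure D3:**
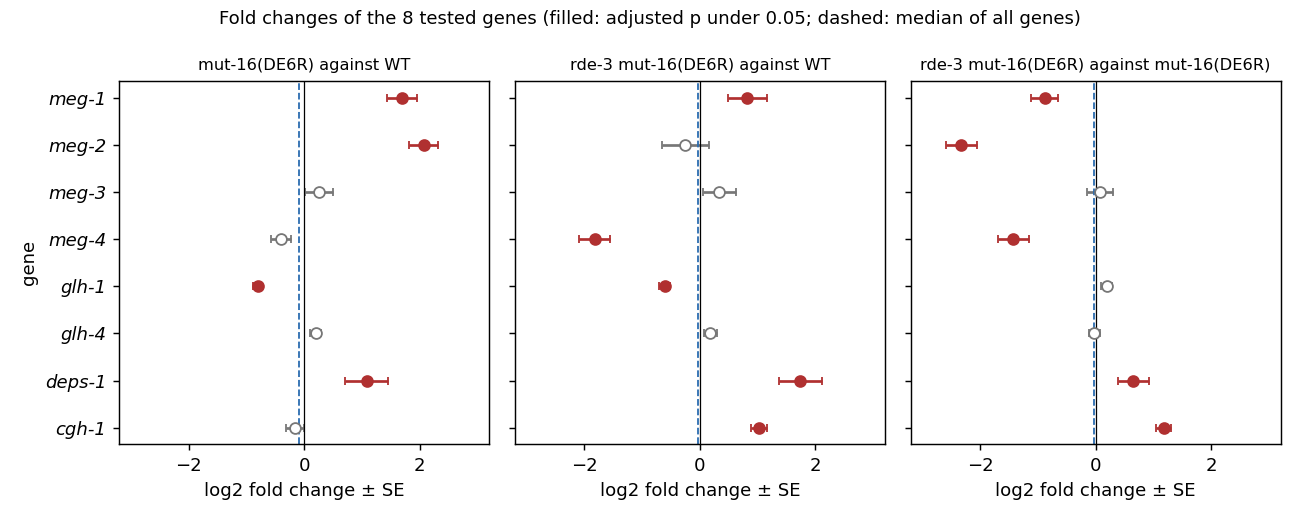
Log2 fold changes of the 8 tested members with their SE in the 3 comparisons, with filled red points at adjusted p under 0.05, open grey points otherwise, and a dashed line at the median of all tested genes. Among the meg genes, meg-1 and meg-2 lie to the right in the first panel (1.70 and 2.07), and meg-4 lies to the left in the second (−1.82).

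All 4 meg genes are on X, where the median gene had fewer reads in the double mutant than in WT or the single mutant. The median log2 fold change of 435 tested X-linked genes was −0.02 in mut-16(DE6R) against WT, −2.58 in the double mutant against WT, and −2.24 in the double against the single mutant, while that of 4792 autosomal genes was −0.08, 0.09 and 0.04. In the double mutant against WT 31 X-linked genes rose and 275 fell, and in mut-16(DE6R) against WT 153 rose and 175 fell. From the single to the double mutant 18 of the 435 rose and 320 fell, and meg-1, meg-2 and meg-4 were among the 320. In the double against the single mutant meg-2 (−2.32) lay near the X median, and meg-4 (−1.42), meg-1 (−0.88) and meg-3 (0.08) lay above it. In the double mutant against WT all 4 lay above the X median. There meg-4 was at −1.82, meg-2 at −0.25, meg-3 at 0.34 and meg-1 at 0.82. Of these, meg-4 passed as a fall and meg-1 as a rise.

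The GLH proteins are DEAD-box helicases that hold P granules at the nuclear pores. Of all members glh-1 had the most reads (chromosome I, 6854478 to 6857536, plus strand): 417 and 619 in WT, 316 and 872 in the single mutant and 284 and 352 in the double mutant, or 623 and 767, 376 and 415, and 437 and 475 CPM. Both WT libraries lay above all 4 mutant libraries. Reads were 1.75-fold lower in mut-16(DE6R) (log2 fold change −0.80, SE 0.08, adjusted p = 9.45e-21) and 1.53-fold lower in the double mutant (−0.61, SE 0.09, adjusted p = 6.30e-11), but with library totals both passed as rises (0.39 and 0.49), and with totals that leave out F56H9.8 the second did (0.64) while the first was at 0.05 and did not pass. With upper quartiles the second was at −0.08 and did not pass. In rank, the first change lay above 32.0% of tested genes and the second above 39.7%, that is, nearer to the middle of all genes than to its lower end. Between the double and the single mutant the change of 0.19 (SE 0.09, adjusted p = 0.0802) did not pass. It passed as a rise with totals that leave out F56H9.8 (0.59), with upper quartiles (0.33), without WT library 2 (0.18) and over genes with 1 transcript row (0.21), and was at −0.06 scaled to germline division reads and −0.10 with no filter.

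At glh-4 (chromosome I, 3727027 to 3731179, plus strand) the libraries held 189 and 262 reads in WT, 311 and 713 in the single mutant and 230 and 250 in the double mutant, or 283 and 325, 370 and 339, and 354 and 337 CPM. The WT libraries lay just below the other 4. No comparison passed: the ratios were 1.14 (counting interval 1.02 to 1.28) for the single mutant against WT, 1.13 (0.991 to 1.29) for the double mutant against WT, and 0.991 (0.887 to 1.10) between the mutants. These calls depended on the setting. Both changes against WT passed as rises with library totals (1.39 and 1.28), totals that leave out F56H9.8 (1.05 and 1.44), upper quartiles (0.60 and 0.71) and without WT library 2 (0.31 and 0.29). That of the single mutant also passed with no filter (0.56) and in the fit of only those groups (0.34). Scaled to germline division reads the single mutant was at −0.05, and the double mutant passed as a fall (−0.32 against WT and −0.27 against the single mutant). Between the mutants the change passed as a rise with totals that leave out F56H9.8 (0.38).

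Of the remaining GLH genes, glh-2 and glh-3, neither is a member. At glh-2 no comparison passed (0.20, SE 0.18, in mut-16(DE6R) and 0.18, SE 0.21, in the double mutant, both against WT). Reads at glh-3 rose in the double mutant against WT (1.07, SE 0.14) and against the single mutant (1.03, SE 0.12), with 0.04 (SE 0.14, adjusted p = 0.821) in mut-16(DE6R) against WT. The sources used here do not say how the mapping shared reads between these paralogs.

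The PGL proteins are the self-assembling scaffold of P granules. At pgl-3 (chromosome V, 4755979 to 4758587, plus strand) the libraries held 3 and 5 reads in WT, 0 and 6 in the single mutant and 5 and 1 in the double mutant. In CPM these were 4.49 and 6.20, 0 and 2.86, and 7.69 and 1.35, so that the single mutant lay below WT and the double mutant overlapped both. The ratios of 0.376 (counting interval 0.108 to 1.24) and 0.795 (0.228 to 2.61) against WT have intervals that include 1, so no change was detectable at this depth. At pgl-1 (chromosome IV, 6974441 to 6977318, minus strand) the only read was in WT library 2, and a count of 0 allows up to 1.02 CPM over the mut-16(DE6R) group and 2.16 CPM over the double mutant group. Neither gene was tested.

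PGL-3 was also one of the tethered proteins of the series, fused to a peptide that brings it to a reporter transcript. The reads mapped to that transgene numbered 138 and 141 with tethered PGL-3 and 152 and 175 in the tethered strain called wild type. No scaling is known for these counts, and they were not tested.

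DEPS-1 is a P granule protein needed for normal PGL-1 accumulation and for full RNAi in the germline. At deps-1 (chromosome I, 506473 to 509056, plus strand) the libraries held 4 and 15 reads in WT, 27 and 53 in the single mutant and 27 and 33 in the double mutant, or 5.98 and 18.6, 32.1 and 25.2, and 41.5 and 44.5 CPM. The 3 groups did not overlap, with WT lowest and the double mutant highest, and the WT libraries lay further apart than those of the mutants. Reads rose 2.12-fold in mut-16(DE6R) (log2 fold change 1.08, SE 0.37, adjusted p = 6.78e-03) and 3.33-fold in the double mutant (1.74, SE 0.37, adjusted p = 9.00e-06), the latter above 97.2% of tested genes. The first rise rests on WT library 1: without it the change was 0.55 and did not pass, without WT library 2 it was 2.17, and DESeq2 did not call it (1.16). The second passed without either WT library, at 1.18 and 2.82. Between the mutants the rise of 0.65 (SE 0.27, adjusted p = 0.0418) did not pass without mut-16(DE6R) library 2 (0.42), without library 1 or 2 of the double mutant (0.70 and 0.58), in DESeq2 (0.57), with no filter (0.33), or scaled to library totals (0.57) or germline division reads (0.40). All 159 reads were listed under the longer of its transcripts, and a gene on the opposite strand, Y65B4BL.7, overlaps its end.

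CGH-1 is a DEAD-box helicase of the DDX6 family that keeps maternal mRNAs stored and repressed in germ granules and processing bodies. At cgh-1 (chromosome III, 7495320 to 7497832, minus strand) the libraries held 87 and 96 reads in WT, 83 and 246 in the single mutant and 155 and 197 in the double mutant, or 130 and 119, 98.8 and 117, and 238 and 266 CPM. Both double mutant libraries lay above the other 4. Reads were 2.04-fold higher in the double mutant than in WT (log2 fold change 1.03, SE 0.14, adjusted p = 1.49e-12) and 2.27-fold higher than in the single mutant (1.18, SE 0.13, adjusted p = 9.76e-20), the latter above 96.9% of tested genes. These rises kept their direction and passed under every alternative run, at 0.52 to 2.28 and 0.88 to 1.59. Between mut-16(DE6R) and WT the change of −0.16 (SE 0.15, adjusted p = 0.363) did not pass, and its sign turned with library totals (1.03), totals without F56H9.8 (0.70), upper quartiles (0.24) and no filter (0.19), while it passed as a fall scaled to germline division reads (−0.41).

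Ratios of reads between members of one library need no scaling. The ratio of meg-2 to meg-4 was 0.260 and 0.216 in WT, 1.53 and 1.22 in the single mutant and 0.467 and 0.889 in the double mutant. Summed per group it was 0.234 (95% counting interval 0.150 to 0.353), 1.29 (1.06 to 1.57) and 0.697 (0.391 to 1.22). The intervals of WT and the single mutant lie apart, as do the ratios of their single libraries, so that these X-linked genes changed unequally in these libraries whatever the scaling. The intervals cover counting error only and not the spread between libraries, and the pairs were picked by hand. For meg-1 to meg-2 the ratio per group was 1.03 (0.600 to 1.79), 0.803 (0.662 to 0.973) and 2.17 (1.3 to 3.73), and for meg-3 to meg-4 it was 0.452 (0.323 to 0.624), 0.709 (0.564 to 0.889) and 2.03 (1.32 to 3.18). In the double mutant meg-1 had more reads than meg-2, and meg-3 more than meg-4, in both libraries.

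The ratio of glh-1 to glh-4 was 2.21 and 2.36 in WT, 1.02 and 1.22 in the single mutant and 1.23 and 1.41 in the double mutant. Both WT libraries lay above all 4 mutant ones, with group values of 2.30 (2.05 to 2.57), 1.16 (1.07 to 1.26) and 1.32 (1.18 to 1.49). The ratio of cgh-1 to glh-1 was 0.209 and 0.155, 0.263 and 0.282, and 0.546 and 0.560 in the same order, without overlap between the groups.

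**Figure D4:**
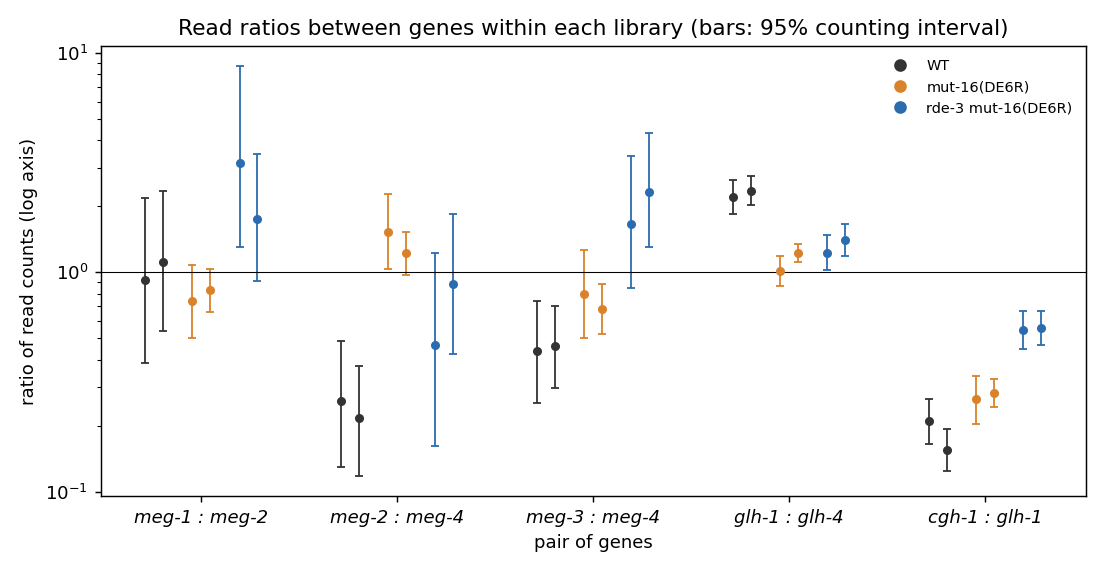
Ratios of read counts between pairs of members within each library, on a log axis with 95% counting intervals, for WT (black), mut-16(DE6R) (orange) and rde-3 mut-16(DE6R) (blue), 2 libraries each. The ratio of meg-2 to meg-4 is highest in mut-16(DE6R), and that of glh-1 to glh-4 is highest in WT (2.21 and 2.36).

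**Figure D5:**
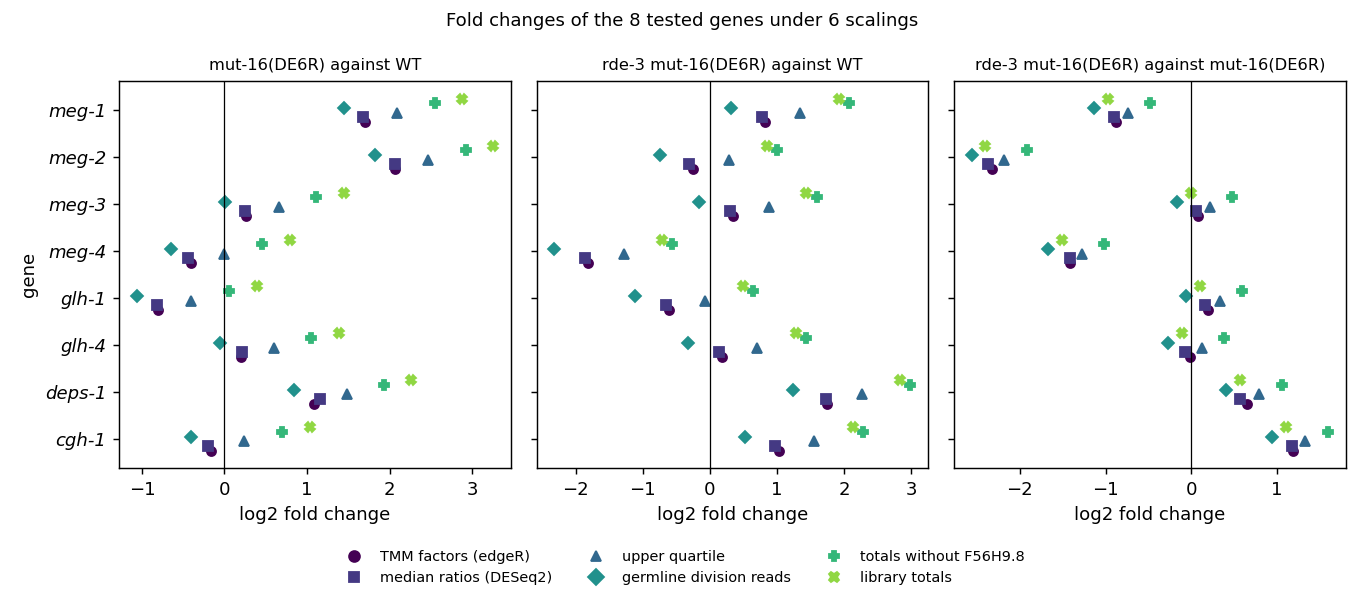
Log2 fold changes of the 8 tested members under 6 scalings in the 3 comparisons. Points of meg-1, meg-2 and deps-1 stay right of 0 in the first panel, while those of glh-1 run from −1.06 to 0.39.

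Other genes of germ granules gave the surroundings of the members. Of 36 names listed, 28 for granule proteins and 8 for regulators, 34 were in the table (eggd-1 and eggd-2 did not match) and 22 were tested. In mut-16(DE6R) against WT 8 rose and 2 fell, beside 22.1% and 36.6% of all tested genes, with a median log2 fold change of 0.23 against −0.09. Those with the smallest p among the rises were wago-4 (0.52, SE 0.09), an Argonaute gene, gld-3 (1.05, SE 0.18), whose protein binds RNA and partners a poly(A) polymerase, pptr-1 (0.78, SE 0.22), which encodes a phosphatase subunit that acts on the MEG proteins, and lotr-1 (0.37, SE 0.11). Reads fell at mex-6 (−1.08, SE 0.19), whose protein helps to place P granules in the embryo, and at prg-1 (−0.25, SE 0.07), the Piwi gene. The count of 10 called genes became 19, all higher, with library totals, 18, all higher, with totals that leave out F56H9.8, 17 with upper quartiles, 4 in DESeq2, 6 without WT library 2 and 5 without mut-16(DE6R) library 2. Scaled to germline division reads 3 rose and 4 fell.

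With both mutations against WT 13 of the 22 rose and 1 fell, beside 26.8% and 37.9% of all tested genes, with a median of 0.60 against −0.03. Scaled to germline division reads 6 rose and 4 fell. The leading rises were wago-1 (1.21, SE 0.13), glh-3, wago-4 (0.68, SE 0.09) and ifet-1 (0.86, SE 0.12), whose protein represses translation together with CGH-1, and prg-1 fell (−0.21, SE 0.08). In the double against the single mutant 9 rose and 1 fell, beside 16.5% and 26.2% of all tested genes, and 6 and 2 did so scaled to germline division reads. The rises were led by glh-3, wago-1 (0.90, SE 0.11), mex-5 (0.90, SE 0.15) and ifet-1 (0.57, SE 0.11), and pid-2 fell (−0.30, SE 0.09). The median was 0.27 against −0.02. The gene of the CGH-1 partner protein CAR-1 was at −0.04 (SE 0.11) in mut-16(DE6R) against WT and rose in the double mutant (0.37, SE 0.11, against WT and 0.41, SE 0.10, against the single mutant). It was singled out after its values were seen.

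Marker genes of tissues moved between the same groups. Summed over 44 germline division genes, levels were 5331 to 5666 CPM in WT, 6531 to 6638 in the single mutant and 7654 to 7968 in the double mutant, with bir-1 and cyb-3 at 0 in all libraries, and 22 of 32 tested genes rose and 2 fell in the double mutant against WT, beside 26.8% and 37.9% of all tested genes. Over 17 intestine genes they were 67.3 to 83.1, 289 to 313 and 616 to 746 CPM, with ifb-2 at 0, and all 10 tested genes rose in the double mutant against WT. Over 16 muscle genes they were 53.8 to 59.5, 90.5 to 93.3 and 254 to 258 CPM, with ttn-1 at 0, and 5 of 6 tested genes rose. In whole worms a change in the number of cells of a type and a change in small RNAs per cell cannot be told apart, and the part of these shifts in the changes of the P granule genes was not tested.

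Genes with the most similar pattern were sought among 5032 tested genes with at least 50 reads, by the distance between log2 CPM values centred per gene over the 6 libraries. Nearest to meg-1 were mct-5 (0.346), laf-1 (0.431) and C50D2.7 (0.432), against a median distance of 2.02. Nearest to meg-2 were sek-1 (0.408) and sft-4 (0.483), both on X, and myrf-1 (0.556), against 2.97. The nearest member to meg-2 was the adjoining meg-1, at number 96 in the order of 5032 genes. For meg-1 the nearest member was meg-3, at number 1002, so that meg-2 stood further down that order. Nearest to meg-3 were cox-14 (0.139), ent-6 and znf-236 (0.185 each), and nearest to meg-4 were F54D5.7 (0.270), unc-33 (0.393) and ZC15.3 (0.461).

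Among the other members, maph-1.3 (0.140), Y17G7B.3 (0.189) and spot-1 (0.209) were nearest to glh-1, and hsp-6 (0.152), puf-12 and C35A5.8 (0.171 each) to glh-4. For deps-1 the nearest were C34D4.2 (0.411), rpac-19 (0.560) and pbs-6 (0.574), and for cgh-1 B0511.19 (0.260), cyp-31A3 (0.288) and plk-2 (0.312). None of these lists named another member, but each holds only 3 of 5032 genes, so their absence says little about a shared pattern.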

How the data were processed

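Small RNAs were extracted with Trizol, treated with PIR-1, ligated to linkers, amplified and size-selected, per the labels' protocols. Cutadapt 4.9, Bowtie 1.3.1 and the WBcel235 genome are named in the submitters' processing notes; the counting program, strand and treatment of multi-mapping reads are not stated there or in the labels. The authors deposited raw read counts per transcript for 6 libraries and 1 transgene count for each tethered library. Identifiers (34324) were matched to the Ensembl WBcel235 annotation, 33755 by transcript and 190 by sequence name, 379 matched none and were kept under their own name, and rows were summed to 22271 genes. The 1 row naming no gene held 0 reads.

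Genes passing edgeR's expression filter (minimum count 10, minimum total 15; 5312 genes, 98.3% of reads) entered edgeR 4.0.16 under R 4.3.3 (quasi-likelihood F test, robust, TMM factors, 1 coefficient per group, 3 residual degrees of freedom), with Benjamini-Hochberg adjustment over all tested genes at 0.05. The spread of each gene is pooled with that of all genes. The SE is the absolute log2 fold change divided by the square root of F, so it restates the p-value. Counting intervals are exact 95% binomial intervals for ratios of reads; limits for 0 reads use 3 counts over the group; PCR reads are not independent molecules. The test was checked on simulated data. Alternatives were other scalings, DESeq2 1.42.0, no filter, 2-group fits, each library left out, a replicate block, 1 row per gene and, added after seeing the data, only genes with 1 transcript row.

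Windows of 22 bases were compared by exon position within a gene. Members and lists were chosen with earlier results of these data known. Named genes were all members, mut-16 and mut-2, up to 4 other granule genes with the smallest p per direction and comparison, and the 3 genes nearest in pattern to each tested member with at least 50 reads. Correlations between same-numbered libraries' deviations from group means were −6.84e-04, −0.0161 and −0.0235, so numbers were not taken to pair libraries. Libraries of a group differed by more than sampling noise (chi-square per degree of freedom 1.56 in WT, 1.11 and 1.13 in the mutants). The common spread beyond counting noise in the fit (biological coefficient of variation) was 0.0401, and the small p-values rest on so small a spread.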

Additional observations from a re-analysis of the deposited data

How the results depend on the processing

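The count of members called went from 4 (3 higher, 1 lower) to 8 with library totals and 7 with totals without F56H9.8, all higher, in mut-16(DE6R) against WT, from 5 to 8 with library totals in the double mutant against WT, and from 5 to 3 in DESeq2 in the double against the single mutant. Other granule genes called went from 10 to 19 with library totals, to 18 with totals without F56H9.8, to 17 with upper quartiles, and to 4 in DESeq2, in mut-16(DE6R) against WT, with a range of 5 to 11 when 1 library was left out. In the double against the single mutant they went from 10 to 17 with totals without F56H9.8 and to 4 with no filter. The cause of these shifts was not tested beyond the moved medians.

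Of 381 values of single members under the alternatives, 307 kept direction and call. Signs turned in mut-16(DE6R) against WT at meg-4 (0.79, 0.46 and 0.00 with upper quartiles, the first 2 values being those with library totals and with totals without F56H9.8), glh-1 (0.39 and 0.05 with the same totals), cgh-1 (1.03, 0.70, 0.24 and, with no filter, 0.19) and, scaled to germline division reads, glh-4 (−0.05). In the double mutant against WT they turned at meg-2 (0.85, 1.00 and 0.28 with those 3 scalings; −0.89 to 0.14 when 1 library was left out, the latter without double mutant library 1), glh-1 (0.49 and 0.64), meg-3 (−0.16 with germline division reads, −0.01 to 0.58 with 1 library left out, lowest without double mutant library 2) and glh-4 (−0.32 with germline division reads). In the double against the single mutant they turned at meg-3 (0.00 with library totals, −0.17, −0.23 with no filter, −0.26 to 0.32 with 1 library left out, lowest without double mutant library 2), glh-1 (−0.06 with germline division reads, −0.10 with no filter) and glh-4 (0.38, 0.12 with upper quartiles, 0.02 without mut-16(DE6R) library 1).

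With the replicate number as a block the counts of members called were 5, 5 and 5 in the 3 comparisons, and meg-4 passed in mut-16(DE6R) against WT (−0.44); no other call of a member changed with the block. Leaving out 1 library, members called ranged from 4 to 5, 4 to 6 and 4 to 6. With 7 to 16 reads per library, depth limits what can be seen at meg-2 in the double mutant, and pgl-1 and pgl-3 allow no statement.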
